A study of Neurospora crassa with 8 samples.

Results

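The antisense-dominated genes of *Neurospora crassa* are annotated protein-coding loci on which nearly all reads of polyadenylated RNA lay on the strand opposite to the annotated gene. A gene was taken as a member when each of 4 strand-specific libraries held at least 30 antisense reads on it and when its antisense reads, added over the 4 libraries, were at least 10 times its sense reads. Of the 9733 counted genes, 952 had the required antisense reads in every library and 212 of them also met the ratio. Of these, 4 loci were left out by the rule, and 208 members remained. The members were thus chosen by their sense and antisense counts in these 4 libraries, and the strand ratio is given below as a description only.

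The strand-specific libraries came from mycelia of the *wt* strain 74-OR23-1VA in liquid culture, which had spent 24 h in darkness and then received 0, 30, 60 or 120 min of light. A further 3 libraries came from mycelia kept in constant light for 48 h. They are *wt* and the knockouts labelled Δ*wc1* and Δ*wc2*, in which a hygromycin resistance cassette replaces *wc-1* or *wc-2* according to the labels. Each condition is represented by 1 library, so no difference between conditions has a replicate check and no test was made.

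Antisense transcripts are made from the strand opposite to a gene and can start at a promoter of their own or in a neighboring gene and run on into the locus. The best known example in *Neurospora* is *qrf*, which is transcribed across the clock gene *frq*. Blue light acts through the white collar complex of the photoreceptor WC-1 and its partner WC-2, which activates light-responsive genes within minutes. The antisense reads of the members across the light exposure are therefore described together with the sense reads of the genes on either side of them.

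The sense counts added up to between 9725970 and 21422091 reads per library and the antisense counts to between 186821 and 443659 reads. Counts were divided by the total reads of each library, relative to their mean. Ratios to the dark library have exact 95% intervals (Clopper-Pearson), which cover counting error only and compare libraries, not conditions. The light response of the cultures was visible in *al-1*, a carotenoid synthesis gene, which had 279 sense reads in the dark and 179685 at 30 min. Genes with at least 10000 sense reads in every library (n = 134) had a median antisense count of 0.0446% of the sense count in the dark, 0.0794% after 30 min, 0.106% after 60 min and 0.0822% after 120 min. This strand ratio, which limits what an antisense count next to a strong sense signal can show, was not the same in all libraries, and its part in the comparisons between light times was not tested.

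The 208 members carried 47680 antisense reads in the dark, 83896 after 30 min, 108583 after 60 min and 51007 after 120 min. These are 25.5%, 25.3%, 24.5% and 22.8% of all antisense reads counted on genes in the respective libraries. Their sense reads were 1450, 2048, 2853 and 1589 in the same order. A typical member was thus a locus with little sense RNA, with a median of 515 antisense and 6 sense reads over the 4 libraries. The antisense sums ranged from 143 to 42033 reads. No sense read was counted on 94 members in the dark, on 62 after 30 min, on 58 after 60 min and on 70 after 120 min.

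Over all 4 libraries, 126 members (60.6%) had fewer than 10 sense reads and 20 members had none. Among the latter, NCU04572 had the most antisense reads, 1612 in sum, so that a count of 0 allows a sense count of up to 0.186% of the antisense count when 3 reads are taken as the limit. NCU00314, another of these 20 loci, had 757 antisense reads and a limit of 0.396%. At the other end, 12 members had 100 or more sense reads, and NCU01553 had the most of them with 222, 263, 488 and 314 sense reads at 0, 30, 60 and 120 min. NCU11707 lay just inside the ratio of 10 with 1194 antisense against 117 sense reads, and NCU09641 just outside it with 847 against 85.

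**Figure D1:**
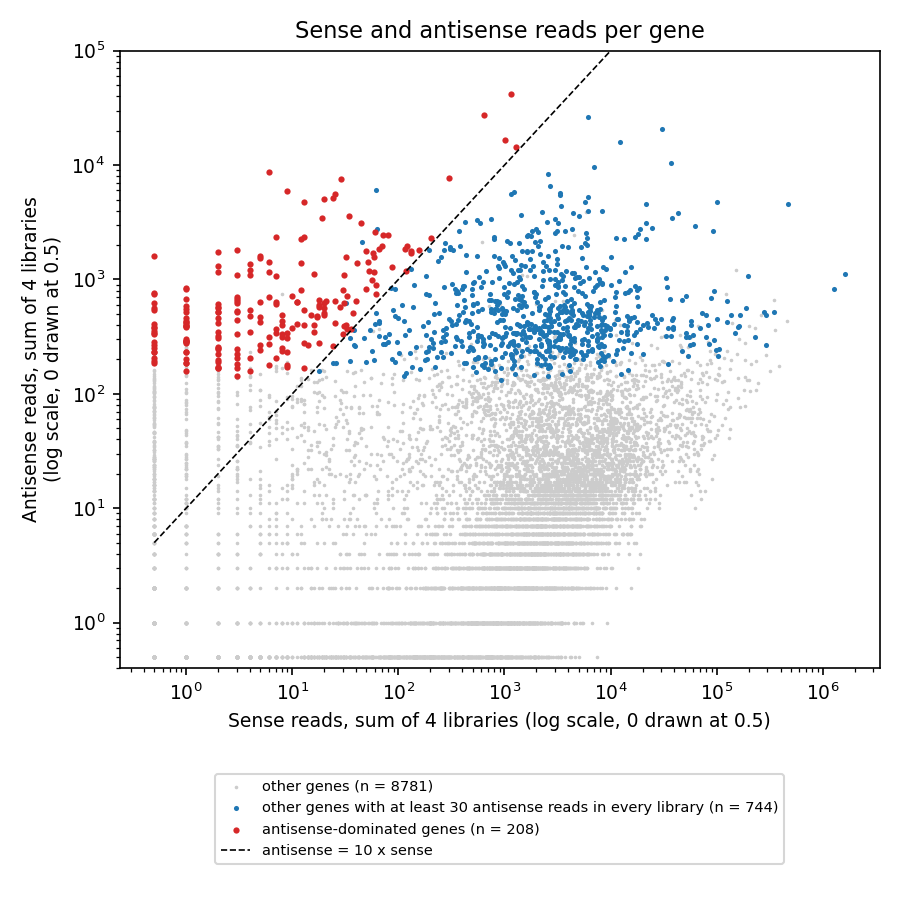
Antisense reads (y axis) against sense reads (x axis) of each counted gene, added over the 4 strand-specific libraries, on log axes with 0 drawn at 0.5. The 208 antisense-dominated genes (red) lie above the dashed line, where antisense reads are 10 times the sense reads, and the 744 other genes with at least 30 antisense reads in every library (blue) lie below it, apart from the loci set aside.

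The ratio was met in sum but not always in each library, since 20 members fell short of 10 in at least 1 library. The widest case was NCU07266. It had 770 antisense and 256 sense reads in the dark, but 13188 antisense and 267 sense reads at 30 min. Its sense count before normalization differed far less from library to library than its antisense count, with 406 sense reads at 60 min and 227 at 120 min. The sense counts of the members gave few values that could be compared with the dark. Of the members with at least 20 sense reads in the 2 libraries, 1 of 30 was above 2-fold after 30 min (background over all genes with this minimum 5.33%), 4 of 32 after 60 min (background 5.92%) and 3 of 25 after 120 min (background 4.22%). Below 0.5-fold were 3 after 30 min (background 7.19%), 4 after 60 min (background 4.99%) and 2 after 120 min (background 2.13%).

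Several annotation features of the members were not part of the rule. A single exon was annotated for 75 of the 208 members (36.1%), compared with 20.8% of the 744 other genes with enough antisense reads and 20.8% of all 9733 genes. The identifiers of 36 members (17.3%) did not occur in the RefSeq annotation of the NC12 genome, compared with 2.82% of the 744 other genes and 5.32% of all genes. Among the 172 members with an entry, 6 (3.49%) had a gene symbol, against 12.4% and 12.1% in the same groups. The annotated span of 57 of these 172 members (33.1%) overlapped that of another gene. This share was 65.7% among the other genes with enough antisense reads and 23.7% among all genes. The members were thus more often single-exon loci without a symbol, and less often overlapping genes, than the other loci with comparable antisense counts. These shares are descriptions and were not tested.

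The 6 members with a symbol are described by name, without standing for the other members. *pks-2* (NCU05011) and *pks-5* (NCU09638) encode polyketide synthases, *T* (NCU00776) encodes tyrosinase, *fmf-1* (NCU09387) is required for the fertility of both parents in a cross, *qa-X* (NCU06022) belongs to the quinic acid cluster, and the sixth is *ci-1* (NCU05001). *ci-1* had the most antisense reads of the 6, with 531 in the dark, 928 after 30 min, 1220 after 60 min and 444 after 120 min, against 6, 11, 23 and 4 sense reads. *pks-5* had 338, 652, 585 and 235 antisense reads and 3 sense reads in all. *pks-2* had 269, 469, 291 and 184 antisense reads and 4 sense reads in all. After normalization, *pks-2* at 60 min was at 0.537 of its dark level (0.454 to 0.636) and *T* at 30 min at 0.533 (0.380 to 0.747). *fmf-1* had 91, 141, 190 and 95 antisense reads and remained between 0.934 and 1.06 of its dark level. *qa-X* had 66, 144, 224 and 80 antisense reads and was highest at 60 min with a ratio of 1.69 (1.28 to 2.25). None of the 6 passed 2-fold in either direction at any light time.

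Some members were direct neighbors of each other. In the gene order of the deposited exon table, 17 members formed 9 adjacent pairs. Among them were *pks-5* and NCU09639, NCU05038 and NCU05039, and the run NCU05851, NCU05852 and NCU05853. Adjacent members can be covered by the same transcript and are not independent of each other.

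Most members kept a similar antisense level across the light exposure. The ratio of the highest to the lowest normalized library had a median of 1.58 over the members and 1.70 over the 744 other genes, and it was below 2 for 158 members (76.0%). In total, 170 members (81.7%) stayed within 2-fold of the dark library throughout the light exposure, compared with 77.8% of the other genes. Above 2-fold were 13 members after 30 min (6.25%, background over all 952 genes with enough antisense reads 6.2%), 9 after 60 min (4.33%, background 6.93%) and 8 after 120 min (3.85%, background 6.09%). Below 0.5-fold were 11 members after 30 min (5.29%, background 6.3%), 6 after 60 min (2.88%, background 3.78%) and 5 after 120 min (2.40%, background 2.21%). The shares of members above 2-fold were near the background at 30 min and below it at the later times. The minimum of 30 reads in every library, the dark included, was part of the rule, so a locus whose antisense RNA was nearly absent in the dark could not be a member, nor could it enter the background.

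The whole distribution lay somewhat lower in the members. The median log2 ratio to the dark was −0.29 after 30 min, −0.14 after 60 min and 0.02 after 120 min, compared with −0.17, 0.01 and 0.28 for the 744 other genes. The quartiles of the members at 30 min were −0.56 and 0.10. With median-of-ratios or TMM factors, all ratios at 30 min would be higher by 0.15 or 0.16 on the log2 scale, in members and other genes alike. The difference between both groups does not depend on this scaling. It was widest at 120 min, where the highest library of 379 of the other genes (50.9%) was that of 120 min, whereas this was true for 71 members (34.1%). The dark library was the highest for 64 members (30.8%) and for 152 other genes (20.4%). The rule limits the sense reads of the members but not those of the other genes. The antisense share of genes with a strong sense signal was 0.0446% in the dark and 0.0822% at 120 min. Its part in the difference between members and other genes was not tested.

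**Figure D2:**
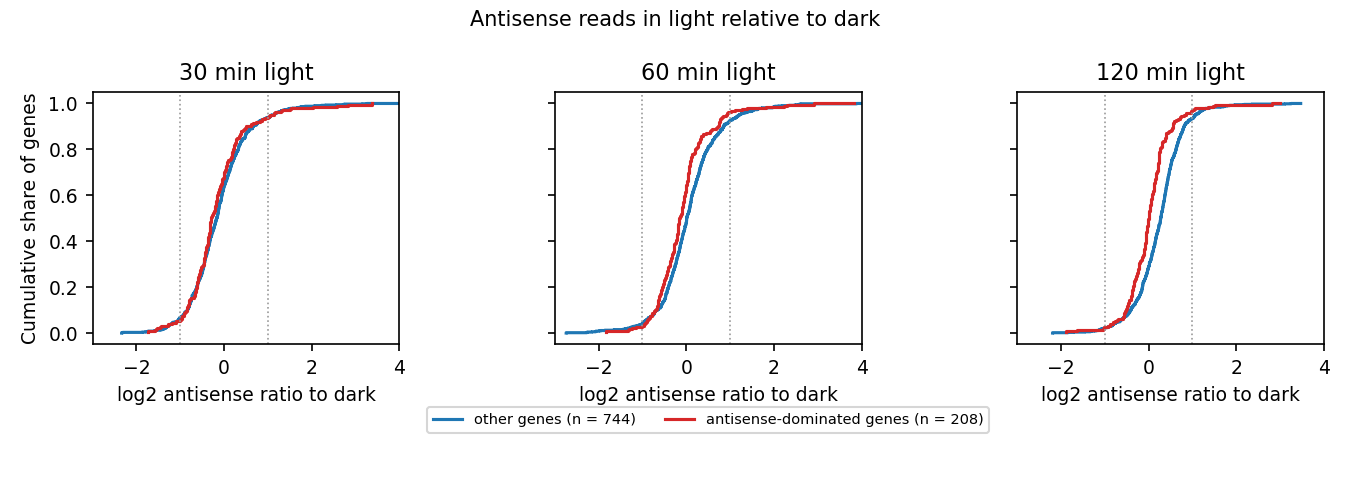
Cumulative share of genes (y axis) by the log2 ratio of normalized antisense reads to the dark library (x axis) after 30, 60 and 120 min of light, for the 208 antisense-dominated genes (red) and the 744 other genes with enough antisense reads (blue). Dotted lines mark 2-fold and 0.5-fold; the curve of the antisense-dominated genes lies to the left at 120 min, where the medians are 0.02 and 0.28.

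The most strongly covered member, NCU07266, was also the one with the largest ratios to dark at 60 and 120 min. Its antisense reads were 770 in the dark, 13188 after 30 min, 21960 after 60 min and 6115 after 120 min. All 3 light libraries were thus far above the dark, with normalized ratios of 10.3 (9.60 to 11.1), 14.2 (13.2 to 15.2) and 8.06 (7.48 to 8.70). NCU07266 overlaps *bli-3* (NCU07267), a blue light-induced gene, in the RefSeq annotation. The sense reads of *bli-3* were 9448, 144855, 247052 and 57351, which gives ratios of 9.24, 13.0 and 6.16. The antisense count of NCU07266 over the 4 libraries was 9.16% of the sense count of *bli-3*, and both peaked at 60 min.

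A second pair of neighbors behaved in the opposite way. NCU05138 had 7148, 8092, 7899 and 4027 antisense reads, so that the normalized level was 0.682 (0.661 to 0.704), 0.549 (0.531 to 0.567) and 0.572 (0.550 to 0.594) of the dark at 30, 60 and 120 min. It overlaps *ncw-1* (NCU05137), which encodes a secreted cell wall protein. *ncw-1* had 26425, 36282, 27565 and 13286 sense reads and ratios of 0.827, 0.518 and 0.510. The antisense signal at NCU05138 amounted to 26.2% of the sense signal of *ncw-1*. In both pairs, the antisense level of the member and the sense level of the overlapping gene departed less from the dark at 30 min than at 60 min.

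Of the 8 members with the most antisense reads, 3 more overlap a neighbor in the annotation. NCU03037 had 2889, 4170, 6034 and 3411 antisense reads and ratios between 0.870 and 1.20. NCU01553 had 2297, 3787, 5195 and 3124 antisense reads and ratios between 0.994 and 1.38. Their overlapping genes NCU03038 and NCU01552 had sense ratios of 0.930, 1.02 and 1.07 and of 0.872, 1.03 and 1.02, respectively. NCU02163 had 974, 1996, 3359 and 1427 antisense reads and was highest at 60 min with a ratio of 1.71 (1.59 to 1.84), where its neighbor NCU02164 had a sense ratio of 1.62. In these 3 pairs neither the antisense reads of the member nor the sense reads of its neighbor passed 2-fold. NCU02163 is among the members whose own sense reads were above 2-fold at 60 and 120 min, with 23, 75, 149 and 51 sense reads.

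The 2 members NCU10603 and NCU05914 had many antisense reads but no neighbor with a comparable sense signal. NCU10603 had 1058 antisense reads in the dark, 3505 after 30 min, 3215 after 60 min and 1012 after 120 min, and 6 sense reads in all libraries together. Its ratio was 2.00 (1.86 to 2.14), just under the threshold and above it with the other scalings (2.01 to 2.24), after 30 min, 1.51 (1.41 to 1.62) after 60 min and 0.971 (0.890 to 1.06) after 120 min, so that the level after 120 min could not be told apart from the dark within counting error. Beyond its 3′ end lies NCU00922, on which no sense read was counted in any of the 4 libraries. Beyond its 5′ end lies *tob37* (NCU00923), with sense ratios of 0.758, 0.887 and 0.979. NCU05914 had 1803, 2093, 2385 and 1296 antisense reads and ratios of 0.700, 0.657 and 0.729. The gene beyond its 3′ end, NCU05912, had no sense read either, and NCU05915 beyond its 5′ end had between 120 and 211 sense reads. For both members the antisense count exceeded the sense counts of the flanking genes added up.

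NCU11959, the eighth of these members, has no entry in the RefSeq annotation of NC12. Its antisense reads were 199 in the dark, 1356 after 30 min, 3007 after 60 min and 1384 after 120 min, with ratios of 4.11 (3.54 to 4.79), 7.50 (6.50 to 8.71) and 7.06 (6.08 to 8.23). The level was thus higher in all 3 light libraries and did not return towards the dark level by 120 min. The adjacent NCU09335 had 137, 1220, 2128 and 723 sense reads and ratios of 5.37, 7.71 and 5.36. The neighbor on the other side, NCU09336, had ratios of 1.20, 0.916 and 0.708.

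The highest ratio at 30 min was found for NCU05039, a member on the minus strand. It had 46 antisense reads in the dark, 790 after 30 min, 458 after 60 min and 70 after 120 min, and its ratios were 10.3 (7.69 to 14.3), 4.94 (3.65 to 6.85) and 1.54 (1.05 to 2.29). The adjacent member NCU05038 had 109, 1280, 1031 and 170 antisense reads and ratios of 7.08 (5.82 to 8.69), 4.70 (3.85 to 5.78) and 1.58 (1.24 to 2.03). Both were therefore highest at 30 min, and at 120 min they were still above the dark beyond counting error but below 2-fold. Beyond the 3′ end of NCU05039 lies NCU05040, which had 177, 3268, 3594 and 367 sense reads and ratios of 11.1, 10.1 and 2.10. NCU12147, on the other side of NCU05040, is a member as well and had 46, 187, 157 and 39 antisense reads. Its ratio at 30 min was 2.45, far below that of NCU05040. The sense ratios of its other neighbor, NCU05041, lay within 1.5-fold of its antisense ratios at all 3 light times.

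NCU00760 is a member without any sense read in the 4 libraries, which allows a sense count of up to 0.399% of its antisense count. It had 36 antisense reads in the dark, 358 after 30 min, 256 after 60 min and 101 after 120 min and ratios of 5.99 (4.25 to 8.70), 3.53 (2.48 to 5.16) and 2.85 (1.93 to 4.29). NCU00761, which overlaps it, had 11, 128, 64 and 30 sense reads and ratios of 7.01, 2.89 and 2.77. The antisense count of NCU00760 was 3.22 times the sense count of this neighbor, unlike in the pair of NCU07266 and *bli-3*.

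The run NCU05851, NCU05852 and NCU05853 was chosen after its values were seen, because 3 consecutive members of the plus strand had nearly the same course. NCU05853 had 146, 604, 512 and 157 antisense reads, NCU05852 had 50, 241, 190 and 35, and NCU05851 had 66, 312, 259 and 62. All were highest at 30 min, with ratios of 2.49 (2.08 to 3.01), 2.90 (2.13 to 4.02) and 2.85 (2.18 to 3.77), and between 0.710 and 1.09 at 120 min. NCU05850, beyond the 3′ end of NCU05851, had 4725, 13374, 23636 and 4885 sense reads. Its ratios of 1.71, 2.48 and 1.05 were highest at 60 min, not at 30 min.

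Among the members with less antisense RNA in light, NCU11095 had the lowest ratios at 60 and 120 min. It had 1009, 608, 571 and 271 antisense reads and ratios of 0.363 (0.328 to 0.402), 0.281 (0.253 to 0.312) and 0.273 (0.237 to 0.312). Every light library was thus below 0.5-fold. The overlapping NCU00751 had 340, 281, 319 and 255 sense reads and ratios of 0.498, 0.466 and 0.761. The other flanking gene, NCU11529, had between 9 and 29 sense reads and ratios of 0.478, 0.291 and 0.315. The sense reads of NCU11095 itself were also fewer, with 29, 20, 21 and 9.

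NCU04501 was low for a shorter time. It had 56, 31, 45 and 91 antisense reads, which gives 0.334 (0.208 to 0.526) after 30 min, 0.399 (0.263 to 0.602) after 60 min and 1.65 (1.17 to 2.34) after 120 min. Beyond its 3′ end, NCU04502 had 19835, 10469, 18776 and 18554 sense reads and ratios of 0.318, 0.470 and 0.949. Both were lowest at 30 min. At 120 min NCU04502 was close to its dark level and NCU04501 was above it. Its antisense count was only 0.330% of the sense count of NCU04502.

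NCU00818 had the lowest ratio of all members at 30 min. It had 167, 83, 194 and 126 antisense reads and ratios of 0.300 (0.227 to 0.392), 0.577 (0.467 to 0.714) and 0.766 (0.603 to 0.971). Its flanking genes NCU00819 and NCU00817 had at most 1 sense read in the 4 libraries, so no neighbor could be compared. NCU11739, which lies next to *dim-5*, the gene of a histone H3 lysine methyltransferase, was likewise lowest at 30 min. It had 115, 65, 190 and 95 antisense reads, and the 30 min ratio was 0.341 (0.247 to 0.466). *dim-5* had 80, 71, 113 and 58 sense reads and a ratio of 0.535 at that time.

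NCU06121 passed 0.5-fold only at the last time. It had 116, 125, 119 and 37 antisense reads and ratios of 0.649 (0.50 to 0.843), 0.509 (0.391 to 0.664) and 0.324 (0.217 to 0.472). The gene beyond its 3′ end, NCU06120, had a sense ratio of 0.428 at 120 min, its lowest value. NCU07751 had 79, 134, 175 and 38 antisense reads and remained at 1.02 and 1.10 of the dark until 60 min before it reached 0.488 (0.322 to 0.728) at 120 min. NCU03413 had 43, 47, 35 and 56 antisense reads and was lowest at 60 min with 0.404 (0.251 to 0.647). The upper bounds of NCU04501, NCU07751 and NCU03413 exceed 0.5, so that counting error alone leaves room for a ratio on the other side of the threshold.

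**Figure D3:**
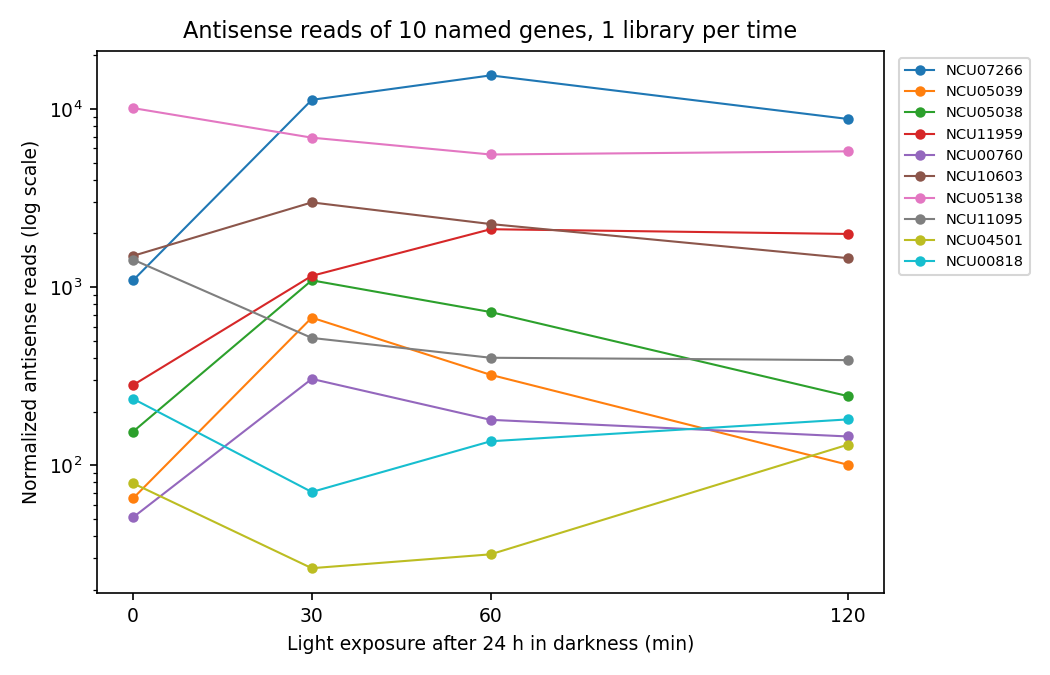
Normalized antisense reads (y axis, log scale) of 10 named antisense-dominated genes after 0, 30, 60 and 120 min of light (x axis), with 1 library per point and no error bars. NCU07266 and NCU11959 remained high after 120 min, NCU05039 and NCU05038 were below 2-fold of the dark by then, at 1.54 and 1.58, and NCU11095 stayed below 0.5 of its dark level at every light time.

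Of the 20 members that passed 2-fold at any light time, 11 were highest after 30 min, 4 after 60 min and 5 after 120 min. Of the 18 that passed 0.5-fold, 10 were lowest after 30 min, 3 after 60 min and 5 after 120 min. The 30 min library was thus the extreme one for 55.0% and 55.6% of them. Among the 744 other genes, it was the extreme one for 28 of 96 genes above 2-fold (29.2%) and for 39 of 70 genes below 0.5-fold (55.7%). The members highest after 30 min are not all separate loci. They include the run NCU05851, NCU05852 and NCU05853, and also the adjacent NCU05038 and NCU05039 next to NCU05040. NCU12147, on the other side of NCU05040, is among them as well, but its course was closer to that of its other neighbor NCU05041. The number of members below 0.5-fold at 30 min was 8 instead of 11 with median-of-ratios or TMM factors. The light libraries were all set against the same dark library, so an error of this library enters each of these counts.

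The neighborhood of the members was then described as a group. The strand of the member, and thus the side of its 3′ end, was given in the supplementary list of antisense RNAs for 107 of the 208 members. The gene beyond the 3′ end had a median of 1930 sense reads over the 4 libraries (quartiles 477 and 7095), against 450 (quartiles 21.5 and 1915) for the gene beyond the 5′ end and 1395 for all genes. The gene beyond the 3′ end had more sense reads than the one beyond the 5′ end in 68 of 107 cases (63.6%). None of these 107 members overlaps another gene in RefSeq, so the comparison of both sides does not cover the overlapping members. It was not made for the 744 other genes.

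The antisense ratio of the member followed the sense ratio of the gene beyond the 3′ end more closely than that of the gene beyond the 5′ end. At 30 min, Spearman's rho was 0.57 over 87 members with at least 10 dark reads on the 3′ neighbor, and 0.12 over 74 members with this minimum on the 5′ neighbor. At 60 min the values were 0.60 and 0.24, and at 120 min 0.22 and 0.21. On the 61 members with both neighbors measured, rho was 0.54 and 0.10 after 30 min, 0.58 and 0.20 after 60 min and 0.17 and 0.11 after 120 min. The difference between both sides was thus present at 30 and 60 min and small at 120 min. Over all 107 members with a given strand, the 5′ neighbors had fewer sense reads than the 3′ neighbors (median 450 against 1930). Ratios of lower counts carry more counting error, which can lower rho, and the part of this in the difference was not tested. These correlations are across genes, which are not replicates, and both ratios of a pair come from the same 2 libraries.

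**Figure D4:**
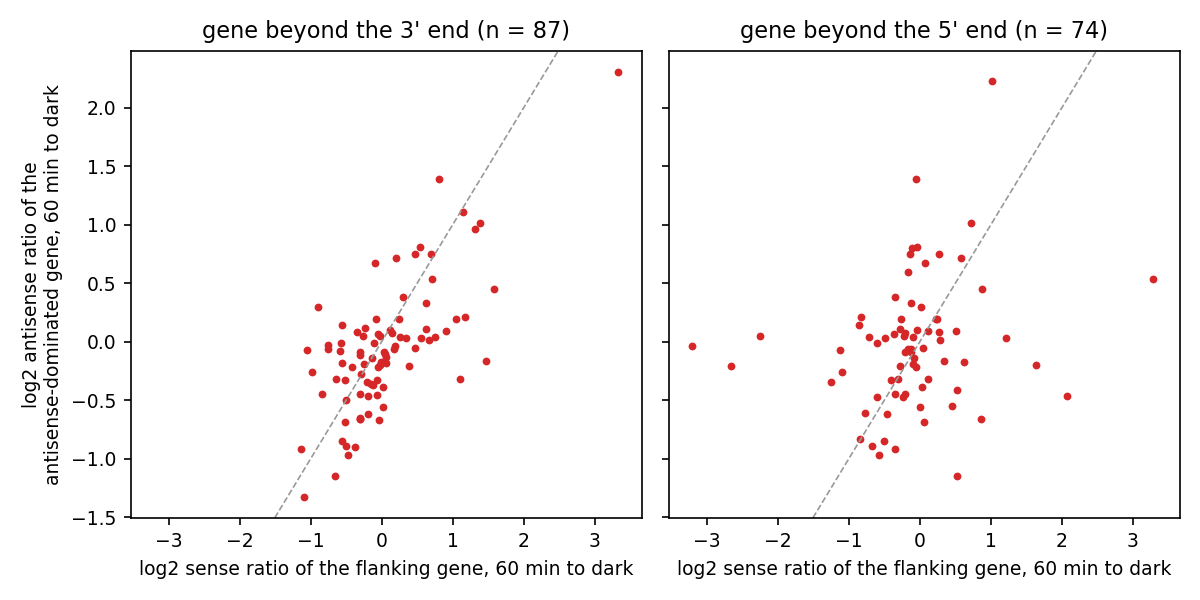
log2 antisense ratio of the antisense-dominated gene at 60 min to dark (y axis) against the log2 sense ratio of the gene beyond its 3′ end (left, n = 87) or its 5′ end (right, n = 74), with 1 point per pair and a dashed line of equal ratios. The points follow the line on the left, where Spearman's rho is 0.60, more closely than on the right, where it is 0.24.

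The relation was closest where the annotated spans overlapped. Over 54 members with an overlapping flank, rho was 0.66 after 30 min, 0.72 after 60 min and 0.51 after 120 min. The antisense ratio of the member and the sense ratio of the overlapping gene typically differed by a factor of 1.17 after 30 min, 1.15 after 60 min and 1.18 after 120 min (medians). Over 226 flanks of members with a RefSeq entry that did not overlap the member, rho was 0.32, 0.37 and 0.20 and the median factor was 1.35, 1.29 and 1.26. In the overlapping pairs, the antisense count of the member had a median of 39.8% of the sense count of its partner (quartiles 15.6% and 102%). A read on the shared stretch of 2 genes on opposite strands lies in the sense direction of one and in the antisense direction of the other, and the counts of a gene and an overlapping partner are therefore not independent.

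The relation was not particular to the members. With the flank that had more sense reads, whatever its side, rho was 0.41, 0.50 and 0.30 at 30, 60 and 120 min over 200 members, and 0.48, 0.50 and 0.38 over 736 other genes with enough antisense reads. With the flank that had fewer sense reads, rho was 0.38, 0.32 and 0.15 over 140 members and 0.31, 0.22 and 0.25 over 644 other genes.

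Members above 2-fold often lay next to a gene whose sense count was above 2-fold at the same time. This was so for 6 of 13 members after 30 min, 7 of 9 after 60 min and 5 of 8 after 120 min. Among all other members, 11 of 195 (5.64%), 20 of 199 (10.1%) and 17 of 200 (8.50%) had such a neighbor. The other genes with enough antisense reads were not counted in this way, so it is not known whether this is particular to the members. The cases are also not all separate, since NCU05039 and NCU12147, both counted at 30 min, share the neighbor NCU05040. Of the 38 members past 2-fold in either direction at any time, 34 had a flank with at least 10 dark sense reads, and 12 of them had a flank whose sense ratio lay within 1.5-fold of their antisense ratio at all 3 light times. This was so for 118 of the 170 members that stayed within 2-fold, counted with or without a measured flank. These members were selected for ratios near the dark, and most genes had sense ratios within 2-fold as well. A flank within 1.5-fold was therefore likely for them beforehand, and both shares are not comparable. In addition, a neighbor with far more sense reads in light was not always accompanied by antisense RNA of the same course. NCU05651 had 134, 180, 437 and 339 antisense reads and ratios of 0.810 (0.644 to 1.02), 1.62 (1.33 to 1.98) and 2.57 (2.10 to 3.16), while its neighbor NCU05652 had sense ratios of 6.70, 9.39 and 3.42. The other neighbor NCU05650, which overlaps NCU05651, had ratios of 1.12, 1.28 and 1.68.

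In constant light, the read counts of the members were compared between *wt* and the 2 libraries labelled Δ*wc1* and Δ*wc2*. These libraries were made with standard Illumina protocols and are not described as strand-specific. Their counts can hold reads of both strands, and whether a difference concerns the sense or the antisense RNA cannot be told apart. Both knockout libraries were set against the same *wt* library, and their values are given side by side.

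The targeted genes were examined before the members. *wc-2* (NCU00902) had 605 reads in *wt*, 922 in the library labelled Δ*wc1* and 141 in the library labelled Δ*wc2*. Its second listed exon had 303 reads in *wt* and 3 in the library labelled Δ*wc2*, but the third had 70 and 54 and the fourth 2 and 31. *wc-1* (NCU02356) had 332 reads in *wt*, 252 in the library labelled Δ*wc2* and 1290 in the library labelled Δ*wc1*, so the total goes against the label. The first of its 2 listed exons had 88 reads in *wt*, 3 in the library labelled Δ*wc1* and 63 in the library labelled Δ*wc2*, and the second had 244, 1287 and 189. The light-responsive gene *vvd*, which encodes the photoreceptor Vivid, had 12684 reads in *wt*, 384 in the library labelled Δ*wc1* and 136 in the library labelled Δ*wc2*.

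All 208 members had at least 20 reads in each pair of libraries. Together they had 69751 reads in *wt*, 75104 in the library labelled Δ*wc1* and 61175 in the library labelled Δ*wc2*, or 0.266%, 0.335% and 0.275% of the summed exon counts. After division by these sums, 36 members (17.3%, background over all genes with at least 20 reads 15.1%) were above 2-fold of *wt* in the library labelled Δ*wc1* and 27 (13.0%, background 7.35%) were below 0.5-fold. In the library labelled Δ*wc2*, 16 members (7.69%, background 10.2%) were above 2-fold and 39 (18.8%, background 7.77%) were below 0.5-fold. The share of members with lower counts was thus above the background in both libraries. With the 95% interval below 0.5-fold as the rule, it was 7.21% and 9.62% of the members, against 4.73% and 4.09% of all genes. The median log2 ratio was −0.01 and −0.25 over the members, against 0.23 and 0.18 over all genes. Median-of-ratios factors would lower every log2 ratio by 0.24 in the library labelled Δ*wc1* and by 0.17 in the library labelled Δ*wc2*. The distance between members and all genes is not affected by this. The members had to have antisense reads in every *wt* library of the light time course. The background genes needed only 20 reads in the pair of libraries together, so genes read mainly in a knockout library could enter the background more easily. The part of this in the difference between members and background was not tested.

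**Figure D5:**
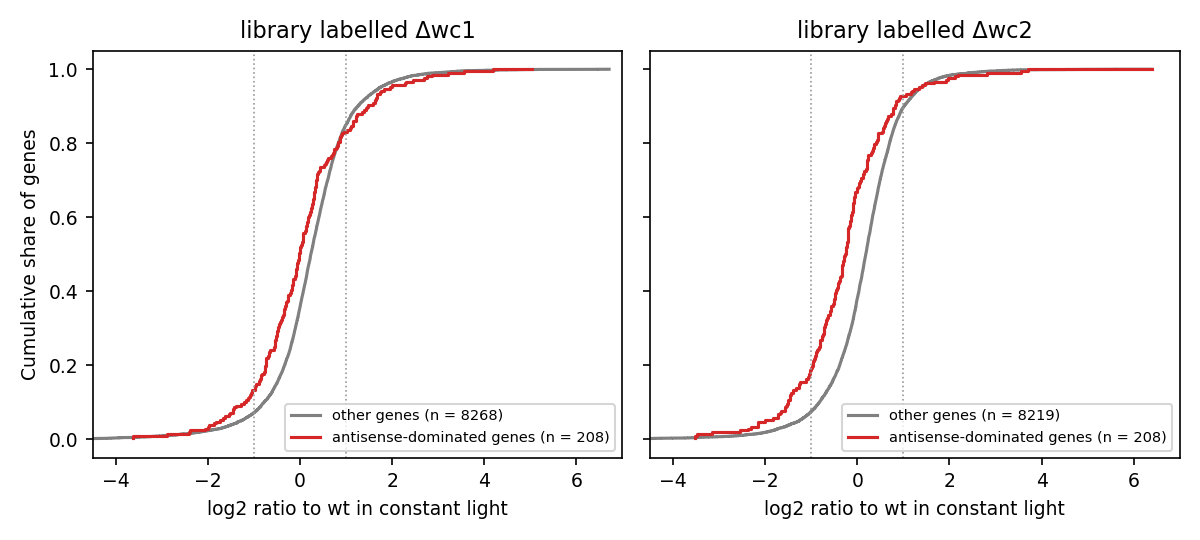
Cumulative share of genes (y axis) by the log2 ratio of exon reads to wt in constant light (x axis) in the libraries labelled Δwc1 (left) and Δwc2 (right), for the 208 antisense-dominated genes (red) and the other genes with at least 20 reads in the pair of libraries and reads in both (grey, n = 8268 and 8219). Dotted lines mark 2-fold and 0.5-fold; the antisense-dominated genes lie to the left of the other genes in the lower part of both panels.

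The neighbors NCU05038 and NCU05039, which were high after 30 min of light, had fewer reads in the knockout libraries. NCU05039 had 217 reads in *wt*, 25 in the library labelled Δ*wc1* and 37 in the library labelled Δ*wc2*, which gives ratios of 0.135 (0.0852 to 0.204) and 0.201 (0.138 to 0.286). NCU05038 had 393, 81 and 105 reads and ratios of 0.241 (0.187 to 0.306) and 0.315 (0.252 to 0.392). Their neighbor NCU05040 had 255, 41 and 103 reads and ratios of 0.188 and 0.477. All 3 genes thus had their highest count in *wt*.

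NCU07266 differed from its neighbor in constant light. It had 620 reads in *wt*, 871 in the library labelled Δ*wc1* and 1201 in the library labelled Δ*wc2*, with ratios of 1.64 (1.48 to 1.82) and 2.29 (2.07 to 2.52). *bli-3* had 63212, 6678 and 18329 reads and ratios of 0.123 and 0.342. In the light time course, the antisense reads of NCU07266 corresponded to the sense reads of *bli-3*. No such correspondence was seen in these counts, which are not separated by strand. How reads on the stretch shared by both genes were counted here is not given. The counts of NCU07266 and of other overlapping members may thus lack part of their antisense RNA. Whether the antisense RNA of NCU07266 differed from *bli-3* in constant light cannot be told. NCU11959 also had more reads in the library labelled Δ*wc1*, with 244 reads against 86 in *wt* and 125 in the library labelled Δ*wc2*.

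The lowest ratios in constant light were found for other members. NCU09490 had 53, 47, 93 and 55 antisense reads in the light time course. In constant light it had 981 reads in *wt*, 68 in the library labelled Δ*wc1* and 75 in the library labelled Δ*wc2*, with ratios of 0.0809 (0.0623 to 0.104) and 0.0902 (0.0703 to 0.114). NCU07116 had 355, 57 and 34 reads and ratios of 0.187 (0.139 to 0.249) and 0.113 (0.0770 to 0.161). NCU06133 had 866, 188 and 64 reads and ratios of 0.254 (0.215 to 0.297) and 0.0872 (0.0666 to 0.112). A neighbor of each of these members was also lower in the knockout libraries: NCU09491 had 142, 28 and 27 reads, NCU07117 had 10839, 1873 and 1482, and NCU06132 had 18987, 2408 and 1881. The other flanking gene of each member is not given, so these values do not describe the neighbors in general.

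On the other side, NCU11724 had 11 reads in *wt*, 171 in the library labelled Δ*wc1* and 121 in the library labelled Δ*wc2*, with ratios of 18.2 (9.89 to 37.1) and 13.0 (7.00 to 26.7). NCU05651 had 15, 151 and 150 reads and ratios of 11.8 (6.90 to 21.5) and 11.8 (6.93 to 21.6). Its neighbor NCU05652 had 2142, 124 and 299 reads and was thus lower where NCU05651 was higher. NCU11364 had 320, 2554 and 406 reads and was high in the library labelled Δ*wc1* alone, with ratios of 9.32 (8.29 to 10.5) and 1.50 (1.29 to 1.74). The overlapping NCU11365 had 1550, 15333 and 3169 reads. NCU07751 had 1, 28 and 71 reads, and with a single read in *wt* its ratio of 83.8 in the library labelled Δ*wc2* has an interval from 14.6 to 3355.

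Among the members with the most antisense reads, NCU10603 had 11018 reads in *wt*, 4196 in the library labelled Δ*wc1* and 7432 in the library labelled Δ*wc2*, with ratios of 0.445 (0.429 to 0.461) and 0.796 (0.773 to 0.820). NCU05138 had 1755, 3315 and 4095 reads and ratios of 2.21 (2.08 to 2.34) and 2.75 (2.60 to 2.91). NCU05914 had 3404, 6216 and 5409 reads and ratios of 2.13 (2.05 to 2.22) and 1.87 (1.80 to 1.96). NCU03037 had 655, 2238 and 2178 reads and NCU01553 had 1059, 3230 and 4064, with ratios between 3.56 and 4.53. Of the members with a symbol, *pks-5* had 379, 193 and 117 reads and was the only one below 0.5-fold, with ratios of 0.595 (0.497 to 0.709) and 0.364 (0.293 to 0.449).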

How the data were processed

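For the strand-specific libraries, the authors prepared polyadenylated RNA with a directional kit, used Bowtie2 2.1.0 for mapping to NC10 and HTSeq for counting, and deposited raw counts of each gene, 1 file for each strand and library. For constant light they deposited raw counts per exon, whose mapping and counting are not given in the sources used here. Summary lines of the count files were left out. Exon counts were added up per gene.

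Strand-specific counts were divided by the total reads stated for each library, relative to their mean, so that they were multiplied by 1.41, 0.852, 0.702 and 1.44 at 0, 30, 60 and 120 min. Constant light counts were divided by their sums. No pseudocount was used, and 3 reads were taken as the limit of a count of 0. A difference was called beyond 2-fold. Flanking genes came from the gene order of the exon table, strands from the supplementary list of antisense RNAs, and symbols and overlaps from RefSeq (NC12). The gene lists by product name and the promoter motif planned for the members were not analysed here. The members, lists and rules were chosen with earlier results of these data known. The text names the 8 members with the most antisense reads, the 3 highest and 3 lowest at each light time and in each knockout library, those nearest the threshold, those with most sense reads or a symbol, and their flanking genes. Others were chosen after their values were seen.

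The calculation of the ratio and interval was checked on simulated counts that held counting error only. The spread between libraries was not simulated. TMM factors came from edgeR 4.0.16 in R 4.3.3, and all other steps used Python 3.11.15 with pandas 2.3.3 and scipy 1.17.1. The lincRNA list with polysome values was not used.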

Additional observations from a re-analysis of the deposited data

How the results depend on the processing

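With a minimum of 10 instead of 30 antisense reads in every library, 320 genes would have been members. When the 95% interval also had to lie beyond the threshold, 8 members remained above 2-fold at 30 min and 4 at 120 min. These are 3.85% and 1.92% of the members, against 3.47% and 2.00% of the 952 genes with enough antisense reads. Below 0.5-fold, 5, 1 and 2 members remained at 30, 60 and 120 min (2.40%, 0.481% and 0.962%, background under the same rule 1.79%, 1.37% and 0.630%). In constant light, 15 members then remained below 0.5-fold in the library labelled Δ*wc1* and 20 in the library labelled Δ*wc2* (7.21% and 9.62%, background under the same rule 4.73% and 4.09%). Among the 115 members that have a RefSeq entry and overlap no other gene, an alternative chosen after seeing the data, 8, 5 and 1 were above 2-fold at 30, 60 and 120 min (6.96%, 4.35% and 0.870%, background over the 363 such genes with enough antisense reads 7.99%, 7.71% and 4.13%). Of the 8 members above 2-fold at 120 min, all but 1 thus overlap another gene or lack an entry. This did not hold at 30 min, where 8 of the 13 members above 2-fold were among these 115 of the 208 members. Another 36 alternative counts stayed within 1.5 times the reported ones, and 294 of 297 recomputed antisense ratios of the 33 named members (3 light times and 3 other scalings) stayed on their side of 2-fold and 0.5-fold. The exception was NCU10603 at 30 min, at 2.01 with counted reads, 2.22 with median-of-ratios and 2.24 with TMM factors instead of 2.00. No paired analysis was possible because each condition has 1 library, and no replicate could be left out for the same reason.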
